A study of Mus musculus with 13 samples.

Results

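Neurotransmitter release depends on a set of proteins that hold, prime and fuse synaptic vesicles, and the 75 mouse genes described here encode that set and its close relatives. They were chosen by gene name among the 21553 genes with an expression value. The rule took symbols that start with Stxbp, Vamp, Cplx, Rims, Unc13 or Sv2, symbols with Syt, Stx or Snap before a digit, and Syn1, Syn2, Syn3, Syp, Rab3a, Rab3b, Rab3c and Rab3d. A name rule also takes relatives with other jobs: Snap91, the clathrin assembly protein AP180 of vesicle recycling, is in by its symbol. Of the 75 genes, 69 had a mean of at least 1 cRPKM in at least 1 group and were tested, and 65 of these reached that mean in all 5 groups. The 6 genes below it everywhere were Cplx3, Cplx4, Stx19, Syt8, Syt15 and Vamp5. The unit cRPKM counts reads per kilobase of the transcript length that reads can map to, scaled to the size of the library. The genes also carried 1078 of the 253155 splicing events used, and 183 of these events could be tested.

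The tissue was cerebella of C57BL/6 mice, sequenced as 13 libraries. The Sam68 knockout groups were at postnatal day 1 (P1, n = 3, libraries 13, 14 and 15) and P10 (n = 3, libraries 10, 11 and 12). The wild-type groups were at P1 (n = 2, libraries 8 and 9), P10 (n = 2, libraries 5 and 6) and P30 (n = 3, libraries 1, 2 and 3), and no knockout library was given for P30. Sam68, encoded by Khdrbs1, is an RNA-binding protein that regulates alternative splicing, and the study asked which splicing choices in the developing cerebellum depend on it. The labels give no sex, and they do not tie libraries to animals, so that p-values measure only the spread between these libraries, which may be technical.

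In a nerve terminal, syntaxin 1 and SNAP-25 on the plasma membrane and VAMP (synaptobrevin) on the vesicle wind into the SNARE complex that drives membrane fusion. Munc18, Munc13, RIM and complexin proteins assemble and hold that complex, tomosyns and amisyn compete for its syntaxin, and several synaptotagmins couple fusion to calcium. In rodents most cerebellar synapses form after birth, as granule cells are born, migrate and send out parallel fibres onto Purkinje cells.

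The alternative sequences that the splicing results turn on are printed first. All are read 5′ to 3′ on the gene's own strand from GENCODE transcripts of the GRCm38 build, matched to the deposited mm9 events by gene, exon length and distance to the neighbouring exons. The first is the alternative 171 nt exon of Stxbp5l, the gene of tomosyn 2 (mm9 chr16:37142362-37142532, minus strand), which was the event of these genes that differed between knockout and wild type. Capitals mark TAAA, a short U/A-rich word of the kind that Sam68 binds in RNA.
Stxbp5l exon of 171 nt: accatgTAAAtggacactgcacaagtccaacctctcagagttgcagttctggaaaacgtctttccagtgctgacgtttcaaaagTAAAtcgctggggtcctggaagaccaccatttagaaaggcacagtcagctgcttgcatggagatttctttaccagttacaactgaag
TAAA was searched on the sense strand only and was found 2 times without overlap. It was present in 280 of the 912 protein-coding internal exons of that length (30.7%), so a match is common and is given as a description.

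The next pair is the alternative exon 5 of Snap25, where a transcript takes either exon 5a (mm9 chr2:136595479-136595596) or exon 5b (mm9 chr2:136595793-136595910), both on the plus strand. Capitals mark the 31 of 118 bases at which the exons differ (73.7% identical).
Snap25 exon 5a: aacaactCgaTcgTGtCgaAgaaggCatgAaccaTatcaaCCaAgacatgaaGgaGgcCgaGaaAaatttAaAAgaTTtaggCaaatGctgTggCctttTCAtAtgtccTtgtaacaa
Snap25 exon 5b: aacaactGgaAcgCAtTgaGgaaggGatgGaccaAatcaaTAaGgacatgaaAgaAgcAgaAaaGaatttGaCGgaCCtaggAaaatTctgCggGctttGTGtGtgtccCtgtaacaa
The other events shown changed with age. In Syt1, the gene of the calcium sensor synaptotagmin 1 (exon with the added part at mm9 chr10:108073607-108073729, minus strand), capitals mark the 9 nt added when the upstream acceptor is used, after 10 bases of the preceding exon. In Unc13a, the gene of the priming factor Munc13-1 (mm9 chr8:74157338-74157394, minus strand), capitals mark the alternative 57 nt exon between 10 bases of each neighbouring exon.
Syt1 alternative acceptor: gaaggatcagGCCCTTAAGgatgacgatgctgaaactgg
Unc13a exon of 57 nt: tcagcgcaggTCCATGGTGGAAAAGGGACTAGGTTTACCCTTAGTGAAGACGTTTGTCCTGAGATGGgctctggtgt

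Khdrbs1, the deleted gene, stood at 5.42, 4.22 and 8.5 cRPKM in knockout P1 libraries, against 56.4 and 74.4 in wild type at P1, and at 2.06, 1.28 and 3.59 in knockout P10 libraries, against 61.2 and 56.2 in wild type at P10. Every knockout library was thus below every wild-type library of its age. Each library held 7.83 to 13.66 M junction reads over simple exon events, in which a read can count more than once. Knockout P1 library 15 stood apart, since 1463 genes that averaged 50 or more junction reads stood there at 0 cRPKM, against 47 to 492 in the other libraries. A value listed at 0 can therefore be a failed estimate, and 5 of the 69 tested genes were at 0 in library 15. Stxbp5l was among them, listed at 0 cRPKM but with 373 junction reads in that library. Values above 0 in library 15 need not follow the junction reads either, as 2 picked examples show. Unc13d stood at 5.33 cRPKM on 4 junction reads, against 0 on 9 and 5 reads in libraries 13 and 14. Syt14 stood at 18.6 cRPKM on 255 reads, against 1.7 and 4.43 on 262 and 259. Markers of several cell classes moved with age. Summed over 6 markers of mature granule cells, the level was 223 to 313 cRPKM at P1 and 564 to 882 at P10 in knockout, and 178 to 280.4 at P1, 784 to 959 at P10 and 1680 to 1906 at P30 in wild type. Markers of granule cell precursors summed to 169 to 217 cRPKM at P1 and 135 to 206 at P10 in knockout, and 100 and 208 at P1, 160 to 207 at P10 and 14.8 to 22.4 at P30 in wild type. Oligodendrocyte markers summed to 22.4 to 43.3 cRPKM at P1 and 1481 to 2849 at P10 in knockout, and 54.8 to 77.2 at P1, 1675 to 2059 at P10 and 3654 to 4557 at P30 in wild type. Purkinje cell markers (5 found) summed to 244 to 351 cRPKM at P1 and 859 to 1203 at P10 in knockout. In wild type they summed to 109 and 219 at P1, 830.5 to 872 at P10 and 1558 to 1858 at P30. Markers of midbrain and caudal hindbrain summed to 14.02 to 26.15 cRPKM at P1 and 6.33 to 10.37 at P10 in knockout. In wild type they summed to 21.8 to 24.9 at P1, 3.79 to 12.65 at P10 and 2.82 to 6.04 at P30. No found marker of any class was at 0 in all libraries. In bulk tissue, more cells of a type and more RNA per cell cannot be told apart, and the part of these shifts in the age results below was not tested.

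With age in wild type, the genes of the release machinery rose more often than they fell. At P30 against P1, 25 of the 69 genes rose and 12 fell (limma, Benjamini-Hochberg adjusted p below 0.05 over 14063 genes). Over all genes tested, 25.4% were called in that comparison, 9.66% higher and 15.8% lower. The median log2 fold change was 0.42 over the 69 genes and -0.13 over all genes. Fold changes are on the log2(cRPKM + 1) scale, which understates changes of low genes, and errors beside them are standard errors. Median-ratio scaling moved the median of all genes by 0.13, to 0.0, and that of the 69 genes to 0.58, with 28 called higher and 9 lower. At P30 against P10, 20 genes rose and 4 fell, where 14.7% of all genes were called, 5.02% higher and 9.73% lower. This count depended on single libraries: it was 12 without wild-type P10 library 6, 14 without P30 library 1 and 15 without P30 library 3. At P10 against P1, 4 rose and 7 fell, where 4.05% of all genes were called, 2.2% higher and 1.85% lower. Quantile normalization gave 8 higher and 7 lower there, and the 11 calls were 5 without wild-type P1 library 8 or P10 library 5 and 7 without P1 library 9, P10 library 6 or P30 library 3.

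**Figure D1:**
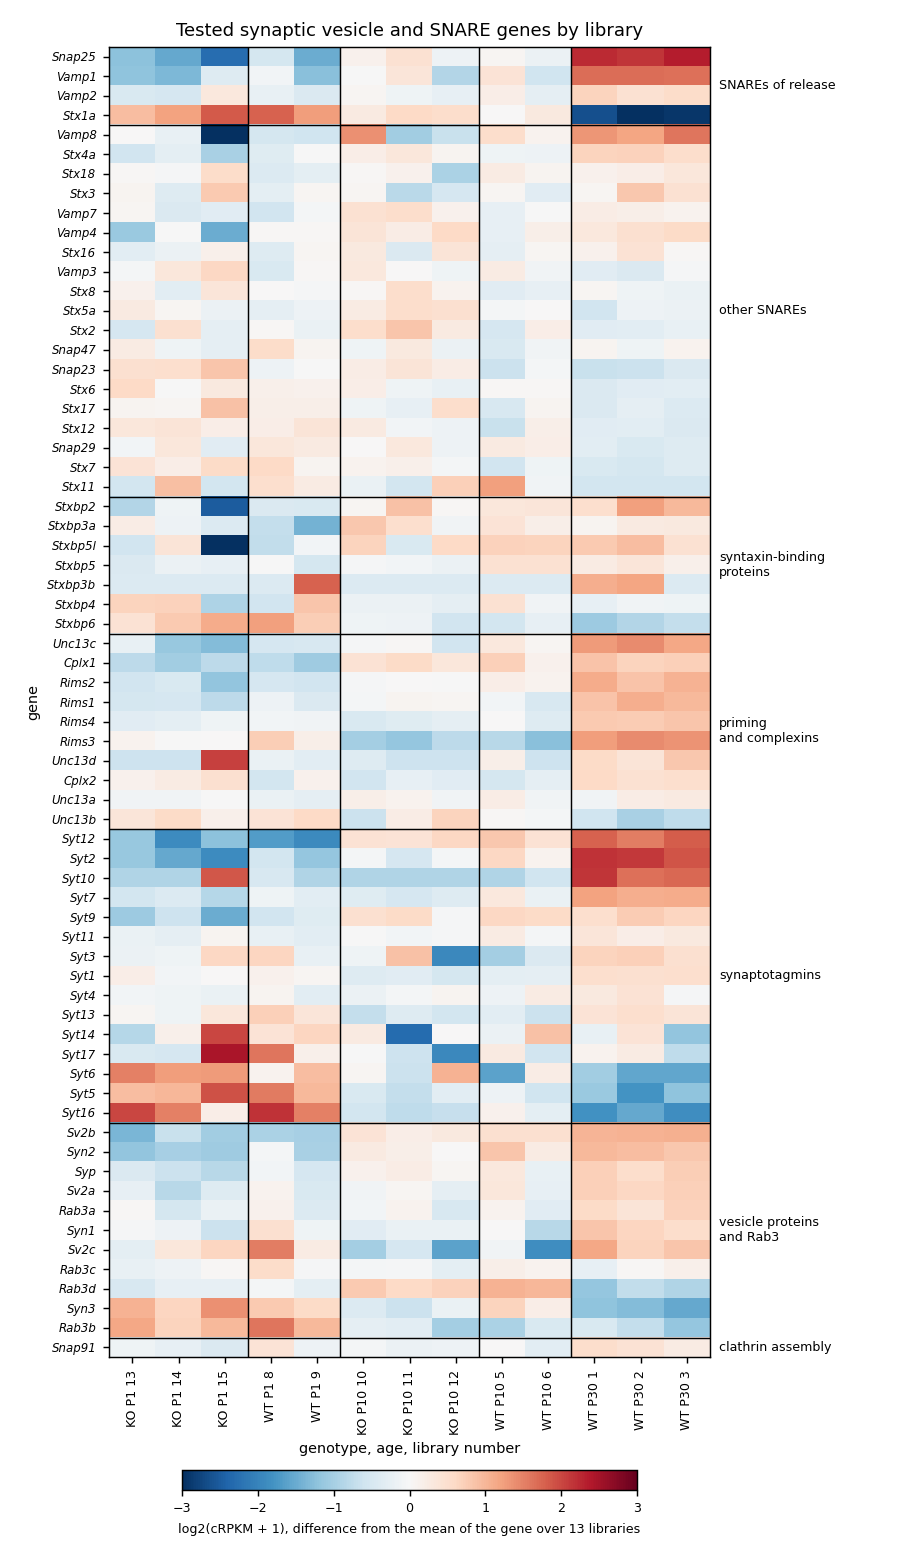
Log2(cRPKM + 1) of 67 of the 69 tested genes in 13 libraries, less each gene's mean over the libraries; rows are genes ordered by role and columns are libraries grouped by genotype and age. The 3 wild-type P30 columns stand out in both directions, and of all 69 genes 25 were called higher and 12 lower there than in wild type at P1.

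The SNAREs of release included genes that rose and a gene that fell. Snap25, the gene of the plasma membrane SNARE with the palmitoylated linker, had 242 and 125 cRPKM in wild-type libraries at P1, 365 and 309 at P10 and 1647, 1562 and 1788 at P30. The P30 libraries were far above all the others and the P1 and P10 libraries did not overlap. The rise was 3.25 ± 0.31 on the log2 scale at P30 against P1 (adjusted p = 1.47e-05) and 2.31 ± 0.31 at P30 against P10 (adjusted p = 0.000419). In knockout cerebella Snap25 had 385, 481 and 317 cRPKM at P10 and 148, 119 and 71.6 at P1, and it was higher at P10 by 1.84 ± 0.28 (adjusted p = 0.00182).

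Stx1a, which encodes a syntaxin partner of SNAP-25, ran the other way. It had 56.8 and 39.2 cRPKM in wild-type libraries at P1, 16 and 19.6 at P10 and 1.7, 0.93 and 1.25 at P30. The 3 ages did not overlap, and Stx1a fell by 4.41 ± 0.28 at P30 against P1 on the log2 scale (adjusted p = 6.84e-07), the largest change in size among the 69 genes. Its lower level at P10 than at P1 (log2 fold change -1.36 ± 0.31, adjusted p = 0.0302) was not called without P1 library 8, P10 library 5 or 6, or P30 library 3. Junction reads, which are counted separately from cRPKM, gave the same direction for Stx1a, with a log2 fold change of -4.49 at P30 against P1.

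Both vesicle SNAREs of release were higher at P30 than at P1. Vamp1, the gene of synaptobrevin 1, had 24.2 and 10.1 cRPKM in wild-type libraries at P1, 34.2 and 16.4 at P10 and 83, 83.8 and 81.8 at P30. Its P1 and P10 libraries overlapped, and the rise at P30 against P1 was 2.32 ± 0.44 (adjusted p = 0.00205). Vamp2, the gene of the main synaptobrevin of the forebrain, was already at 151 and 131 cRPKM at P1, with 202 and 145 at P10 and 279, 242 and 259.6 at P30, a smaller rise of 0.88 ± 0.23 at P30 against P1 (adjusted p = 0.0138). Both calls were lost without wild-type P1 library 9, and that of Vamp1 at P30 against P10 was lost without P10 library 6 or any of the P30 libraries.

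**Figure D2:**
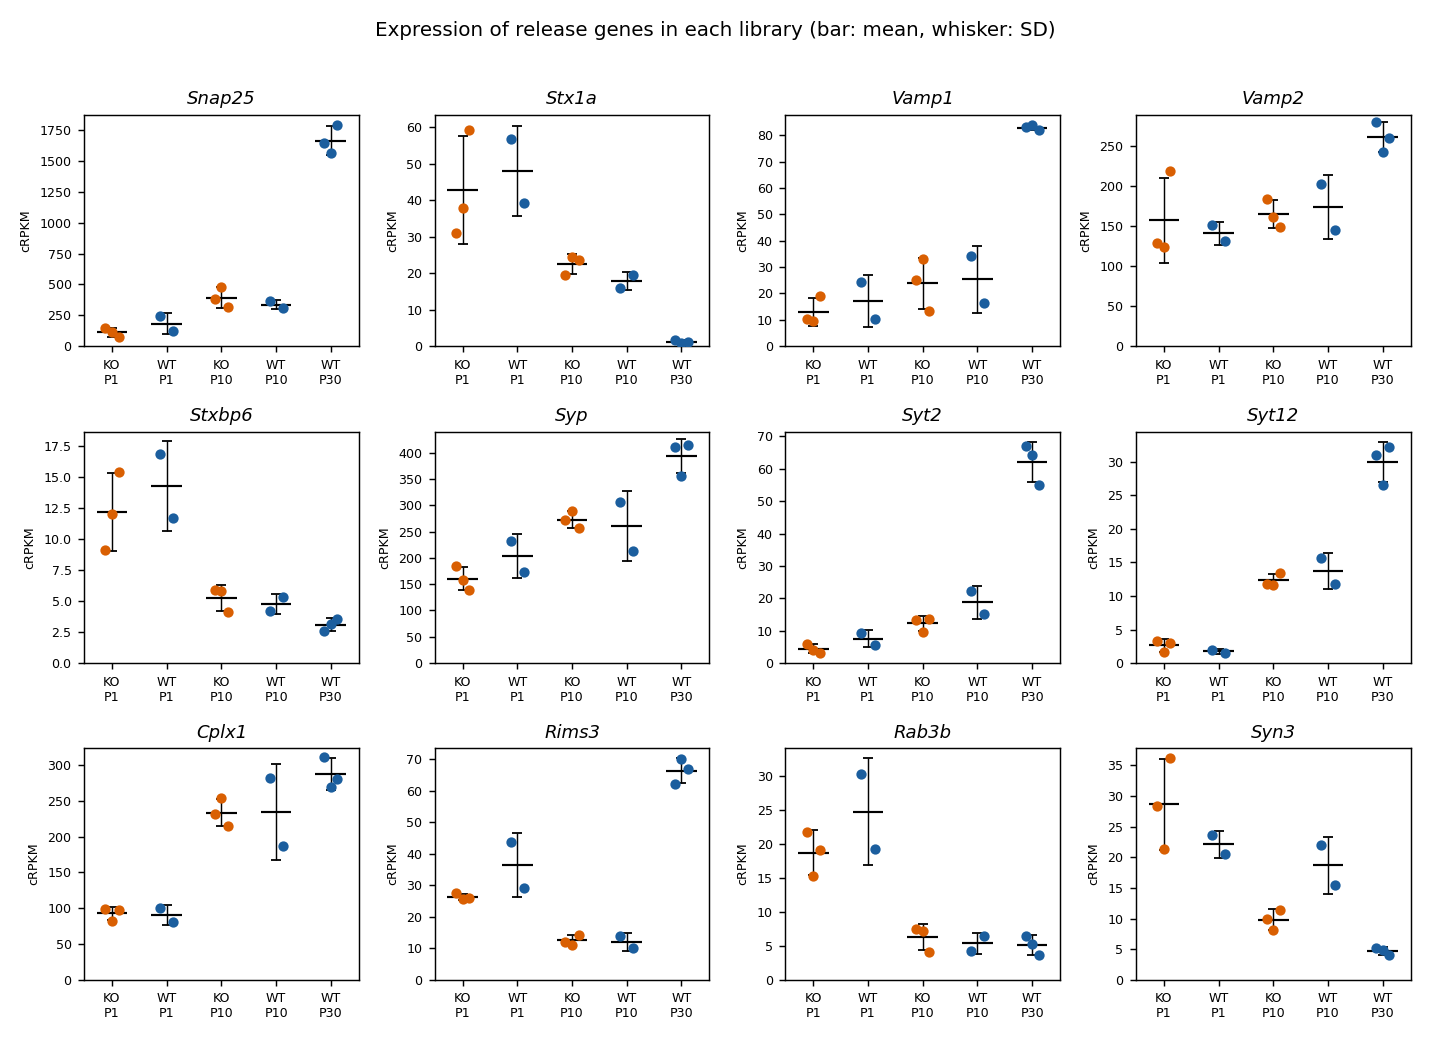
Expression in cRPKM (y axis) of 12 genes in knockout P1, wild-type P1, knockout P10, wild-type P10 and wild-type P30 libraries; points are libraries, bars are group means and whiskers are SDs. Snap25 lies between 1562 and 1788 cRPKM in the P30 libraries, and Stx1a between 0.93 and 1.7.

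Of the 19 tested SNAREs of other membranes and fusion steps, 1 rose and 3 fell at P30 against P1 and 15 were not called, and their median log2 fold change was -0.09. The gene that rose was Stx4a, for syntaxin 4 of the plasma membrane (log2 fold change 0.81 ± 0.23, adjusted p = 0.0189). Those that fell were Stx7 of late endosomes (log2 fold change -0.79 ± 0.19, adjusted p = 0.00957), Snap29 of endosomes and autophagosomes (log2 fold change -0.69 ± 0.22, adjusted p = 0.0387) and Stx12 of recycling endosomes (log2 fold change -0.65 ± 0.22, adjusted p = 0.0485). The calls leaned on single libraries: those of Stx4a and Stx7 were lost without P1 library 8, that of Stx4a also without P30 library 1 or 2, that of Snap29 without any 1 of the 5 libraries compared, and that of Stx12 without 8 of the 13 libraries. Snap29 and Stx12 were also not called under median-ratio scaling or quantile normalization.

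Syntaxin-binding proteins both rose and fell. Stxbp6, the gene of the syntaxin-binding protein amisyn, had 16.8 and 11.7 cRPKM in wild-type libraries at P1, 4.17 and 5.35 at P10 and 2.55, 3.13 and 3.57 at P30 (log2 fold change -1.89 ± 0.31, adjusted p = 0.000702 at P30 against P1). At P10 against P1 it was also called lower (log2 fold change -1.39 ± 0.34, adjusted p = 0.0394), but not without 10 of the 13 libraries in turn. Stxbp5, the gene of tomosyn 1, had 15.9 and 10.9 cRPKM at P1, 22.4 and 22.5 at P10 and 19.3, 21.1 and 18.2 at P30 and was not called between any ages. Nor was Stxbp5l, with 5.15 and 8.74 cRPKM at P1, 15.6 and 15.2 at P10 and 16.7, 18.4 and 13 at P30. Stxbp3a, of the Munc18-3 type, was called higher at P30 (log2 fold change 1.29 ± 0.33, adjusted p = 0.0128), but it has a near-identical copy in the table, Stxbp3b, and reads may be split between them. Its call was lost without P1 library 9.

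Of 10 tested genes for priming factors, RIM proteins and complexins, 7 rose and 1 fell at P30 against P1, with a median of 0.88. Rims1, the gene of the active zone scaffold RIM1, had 19 and 15.5 cRPKM in wild-type libraries at P1, 20.1 and 14.9 at P10 and 39.1, 46 and 42.4 at P30 (log2 fold change 1.25 ± 0.19, adjusted p = 0.00040 at P30 against P1). Rims3, for a short RIM that lacks most domains of RIM1, was lowest at P10: it had 43.7 and 29.3 cRPKM at P1, 14 and 10.1 at P10 and 62.2, 70.1 and 67 at P30. The P10 libraries lay below the P1 libraries (log2 fold change -1.51 ± 0.23, adjusted p = 0.00278) and the P30 libraries above both (log2 fold change 2.39 ± 0.21, adjusted p = 1.71e-05 at P30 against P10). Rims2 and Rims4 were also called higher at P30 than at P1, by 1.55 and 0.89 on the log2 scale. The call of Rims3 at P30 against P1 (log2 fold change 0.87 ± 0.21, adjusted p = 0.00799) was lost without P1 library 9.

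The Munc13 genes diverged. Unc13c, for Munc13-3, the form known from cerebellum, had 9.16 and 9.18 cRPKM in wild-type libraries at P1, 16.7 and 13.9 at P10 and 33.5, 37.2 and 31.1 at P30, a rise of 1.78 ± 0.31 (adjusted p = 0.00121). Unc13b, for Munc13-2, had 7.73 and 8.82 cRPKM at P1, 5.66 and 5.26 at P10 and 3.34, 2.3 and 2.84 at P30, and fell at P30 against P1 (log2 fold change -1.28 ± 0.36, adjusted p = 0.0216), a call lost without P1 library 8 or 9 or P30 library 2 or 3. Unc13a, for Munc13-1, was not called, with 24.3 and 22.9 cRPKM at P1, 32.5 and 26.1 at P10 and 25.9, 32.8 and 33.7 at P30. Unc13d, for Munc13-4, known from blood cells, was not called in cRPKM (log2 fold change 0.86 ± 0.67, adjusted p = 0.408) but had 4 and 12 junction reads in wild-type libraries at P1, 21 and 14 at P10 and 217, 132 and 169 at P30. On junction reads scaled to library totals its rise at P30 against P1 was 3.13 on the log2 scale. It passed there and, in cRPKM, with the compared groups alone. Unc13d had 0.32 and 0.22 cRPKM in wild-type libraries at P1 and 1.26, 1 and 1.68 at P30. It reached the filter of 1 cRPKM through wild type at P30 and through knockout P1. In knockout P1 only library 15 had a value, 5.33 cRPKM on 4 junction reads, and that value entered the shared estimate of spread.

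The complexins, small proteins that clamp and activate the SNARE complex, exchanged rank. Cplx1 had 100.2 and 81.1 cRPKM in wild-type libraries at P1, 282 and 187 at P10 and 311, 269 and 281 at P30, and most of its rise was made by P10 (log2 fold change 1.34 ± 0.20, adjusted p = 0.0026 at P10 against P1). Cplx2 had 115 and 185 cRPKM at P1, 117 and 141 at P10 and 255, 234 and 239 at P30, and was called higher at P30 than at P1 (log2 fold change 0.73 ± 0.20, adjusted p = 0.0163) and than at P10 (log2 fold change 0.91 ± 0.20, adjusted p = 0.00814). The first of these calls was lost without P1 library 8 or P30 library 1, and the second without P10 library 5. In cRPKM, which is per length, each Cplx1 library was above each Cplx2 library at P30 (means 287 and 242), and each was below each Cplx2 library at P1 (means 90.6 and 149.9).

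Of the 15 synaptotagmin genes tested, 7 rose and 3 fell at P30 against P1. Syt2, the gene of the fast calcium sensor typical of hindbrain synapses, had 9.31 and 5.7 cRPKM in wild-type libraries at P1, 22.4 and 15.2 at P10 and 66.9, 64.2 and 55.1 at P30, and the ages did not overlap (log2 fold change 2.92 ± 0.29, adjusted p = 1.91e-05 at P30 against P1). Syt12, a synaptotagmin without the usual calcium-binding residues, had 1.99 and 1.51 cRPKM at P1, 15.6 and 11.8 at P10 and 31.1, 26.6 and 32.2 at P30. It was the gene of the 69 with the largest rise (log2 fold change 3.49 ± 0.28, adjusted p = 3.6e-06 at P30 against P1) and was already called at P10 against P1 (log2 fold change 2.41 ± 0.31, adjusted p = 0.000992). Syt1, the main fast calcium sensor of the forebrain, was called higher at P30 than at P1, but by 0.41 ± 0.13 only (adjusted p = 0.0314), and that call was lost without any 1 of the 5 libraries compared. The levels of Syt1 were 99.3 and 93.7 cRPKM at P1, 73.9 and 74.4 at P10 and 129, 126 and 129.9 at P30.

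The synaptotagmins that fell were Syt5, Syt6 and Syt16. Syt5 had 24.2 and 15.8 cRPKM in wild-type libraries at P1, 6.65 and 4.58 at P10 and 2.92, 1.44 and 2.71 at P30 (log2 fold change -2.64 ± 0.37, adjusted p = 0.000218 at P30 against P1). Syt16, a relative without calcium binding, had 33.5 and 21.1 cRPKM at P1, 7.44 and 5.25 at P10 and 1.19, 1.66 and 1.12 at P30 (log2 fold change -3.58 ± 0.45, adjusted p = 0.000103 at P30 against P1). In both genes the ages did not overlap, and both were already called lower at P10 than at P1, by log2 fold changes of -1.65 for Syt5 and -1.93 for Syt16. Those P10 calls were near the threshold (adjusted p of 0.0399 and 0.0496) and were lost without 7 of the 13 libraries for Syt5 and 11 for Syt16, and for both with a pseudocount of 0.1 or no filter. Syt6 had 7.86 and 14.6 cRPKM at P1, 1.7 and 8.63 at P10 and 2.98, 1.77 and 1.78 at P30 (log2 fold change -1.91 ± 0.55, adjusted p = 0.0234 at P30 against P1), and its call was lost without P1 library 8 or 9 or P30 library 2 or 3. Syt10, Syt7 and Syt9 rose by 2.52, 1.36 and 1.1 on the log2 scale at P30 against P1, and on junction reads Syt7 by 0.88. With a pseudocount of 0.1 Syt10 was not called. It had 0.35 and 0 cRPKM in wild-type libraries at P1, 0 and 0.23 at P10 and 7.27, 4.9 and 5.13 at P30. Syt10 passed the filter of 1 cRPKM through wild type at P30, the group where it was high. It also passed through knockout P1, where library 15 alone had a value (5.82). Its call is therefore given as a description. Syt11 also rose, by 0.55, and Syt4, its closest relative, was not called between any ages. The calls of Syt10 and Syt9 at P30 against P1 were lost without P1 library 8, those of Syt10 and Syt11 without P1 library 9 or P30 library 1.

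Among 11 vesicle membrane, synapsin and Rab3 genes, 4 rose and 3 fell at P30 against P1. Sv2b, which encodes a vesicle glycoprotein, had 22.4 and 21.8 cRPKM in wild-type libraries at P1, 62.9 and 62.9 at P10 and 91.7, 93.1 and 94.4 at P30, with each age apart from the next (log2 fold change 2.03 ± 0.18, adjusted p = 8.04e-06 at P30 against P1). Sv2a, Syn2 and Syp rose by 0.86, 1.41 and 0.96 on the log2 scale, and the call of Sv2a was lost without P1 library 9. Syp encodes synaptophysin, the abundant membrane protein of the vesicle, and it was the gene of the 69 with the second highest mean level at P30, 394 ± 32.2 cRPKM (SD, n = 3). Sv2c was called higher at P30 than at P10 only (log2 fold change 1.87 ± 0.56, adjusted p = 0.0431). That call was lost without P10 library 6 or any P30 library, among others, and Syn1 was called at P30 against P10 (log2 fold change 1.08 ± 0.27, adjusted p = 0.0176) but not without P10 library 6 or P30 library 1.

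The synapsins tie vesicles to each other and to the cytoskeleton, and Syn3 is the form known from early neurons. Syn3 had 23.7 and 20.5 cRPKM in wild-type libraries at P1, 22 and 15.4 at P10 and 5.26, 4.87 and 3.99 at P30, and at P30 it fell by 2.02 ± 0.26 against P1 on the log2 scale (adjusted p = 0.000141). Its P1 and P10 libraries overlapped and the P30 libraries were lower than both. Rab3 proteins are GTPases that bring vesicles to RIM, and each Rab3 gene had its own course. Rab3b had 30.3 and 19.2 cRPKM at P1, 4.3 and 6.5 at P10 and 6.46, 5.22 and 3.61 at P30, so that the lower level was reached by P10 (log2 fold change -2.0 ± 0.37, adjusted p = 0.00968 at P10 against P1). That call was lost without P1 library 8 or P10 library 5. Rab3d had 9.56 and 8.01 at P1, 21.7 and 20.8 at P10 and 3.94, 5.64 and 4.89 at P30: it was higher at P10 than at P1 (log2 fold change 1.19 ± 0.25, adjusted p = 0.0185) and lower at P30 than at P10 (log2 fold change -1.94 ± 0.23, adjusted p = 0.000146). The first of these calls was lost without any 1 of the P1 and P10 wild-type libraries and with the compared groups alone. Its lower level at P30 than at P1 lost its call under median-ratio scaling and without P1 library 8 or P30 library 1 or 3. Rab3a, the main neuronal form, had 249 and 169.8 cRPKM at P1, 241 and 176 at P10 and 335, 295 and 367 at P30 and missed the threshold at P30 against P1 (log2 fold change 0.69 ± 0.23, adjusted p = 0.0503). It passed under median-ratio scaling (log2 fold change 0.85, adjusted p = 0.0188), quantile normalization, a pseudocount of 5 and with the compared groups alone. It also passed without knockout P1 library 13, 14 or 15 or knockout P10 library 11 or 12. Without wild-type P1 library 8 the log2 fold change was 0.96. Rab3c was not called between any ages.

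The order of the most abundant genes shifted with these changes. In knockout cerebella at P1 the highest means in cRPKM were Cplx2 at 207 ± 25.4, Rab3a at 194 ± 37.9 and Syp at 161 ± 22.4 (SD, n = 3). In wild type at P1 they were Rab3a at 209 ± 55.7, Syp at 203 ± 41.5 and Snap25 at 183 ± 83.1 (SD, n = 2), and neighbours in both orders differed by less than the larger of their SDs. At P10, Snap25 led with 394 ± 82.3 in knockout and 337 ± 39.2 in wild type. At P30, Snap25 at 1666 ± 114 (SD, n = 3) was ahead of Syp by more than 10 times either SD, and Rab3a followed at 333 ± 36.0. Cplx1 was at 287 ± 21.9 and Vamp2 at 260.4 ± 18.7.

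The change between P1 and P10 could be read in each genotype from separate libraries. In knockout cerebella, 12 of the 69 genes were higher and 9 lower at P10 than at P1, where 10.2% of all genes were called, 5.58% higher and 4.59% lower. Knockout had 3 libraries at each age and wild type 2, so that the counts of 21 and 11 do not compare the genotypes. Of these calls, 10 were shared, which is 47.6% of the knockout calls and 90.9% of the wild-type calls. The shared part of the calls over all genes was not computed, so these shares are not read as particular to the 69. Across the 69 genes the log2 fold changes of the genotypes had Pearson r = 0.84 and Spearman rho = 0.82, and 57 had the same sign. Over all 14063 genes r was 0.51 and rho 0.47, with 9270 of the same sign, and on junction reads r was 0.92 and rho 0.92 over 50 of the genes. These are correlations across genes, which are not independent, and the libraries of the genotypes are separate. The difference between the genotypes' age changes was called for none of the 69 genes (limma, Benjamini-Hochberg adjusted), where 0.0142% of all genes were called. At an unadjusted p below 0.05 it held for 4 of the 69 and 728 of all genes.

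**Figure D3:**
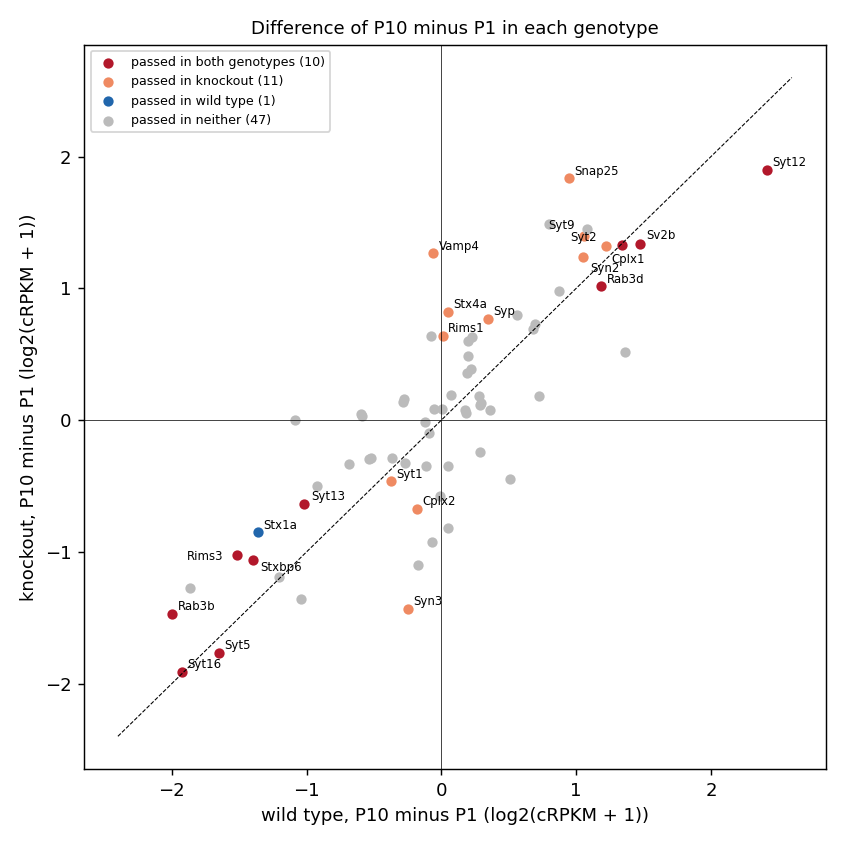
Log2 fold change at P10 against P1 in knockout (y axis) against wild type (x axis), 1 point for each of the 69 tested genes, coloured by where it was called. Most points lie near the diagonal, and 10 genes were called in both genotypes, 11 in knockout alone and 1 in wild type alone.

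The genes called in both genotypes were led by Syt12, Sv2b, Cplx1 and Rab3d, which rose, and Syt16, Syt5, Rab3b and Rims3, which fell. Syt12 had 11.8, 11.7 and 13.5 cRPKM in knockout at P10 against 3.33, 1.58 and 3.04 at P1, and rose by 1.9 ± 0.25 in knockout and 2.41 ± 0.31 in wild type. Cplx1 rose by 1.33 in knockout and 1.34 in wild type, and Sv2b by 1.33 in knockout and 1.47 in wild type. Rab3b had 7.53, 7.2 and 4.04 cRPKM in knockout at P10 against 21.8, 15.3 and 19.1 at P1 (log2 fold change -1.47 ± 0.30, adjusted p = 0.00983), again with no overlap. Stx1a was the gene called in wild type alone. It had 19.5, 24.6 and 23.5 cRPKM in knockout at P10 against 31.1, 37.8 and 59.3 at P1, a change of -0.85 in the same direction (adjusted p = 0.0546) that passed without knockout P1 library 13 (-1.05, adjusted p = 0.0352). The knockout change also passed with a pseudocount of 5, under quantile normalization and on junction reads. With a pseudocount of 0.1 the wild-type call was lost, so Stx1a does not set the genotypes apart. Genes called in knockout alone included Snap25, Syn2 (log2 fold change 1.24 ± 0.22, adjusted p = 0.00449), Syn3 (log2 fold change -1.43 ± 0.24, adjusted p = 0.00279), Syt2 (log2 fold change 1.32 ± 0.26, adjusted p = 0.00802) and Syt9 (log2 fold change 1.4 ± 0.24, adjusted p = 0.0035). A fit on the 6 knockout libraries alone made 9 calls, without those of Rab3b, Rab3d, Syt16, Syt2 and Syt9, and without knockout P1 library 15 the count was 16.

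Between knockout and wild type, none of the 69 genes was called at either age. At P1, 0.0356% of all genes were called (0.00711% higher and 0.0284% lower), and at P10, 0.00711% (all lower). At an unadjusted p below 0.05 the test took 11 of the 69 genes at P1 (953 of all 14063) and 5 at P10 (748 of all). The count was 0 also with each other pseudocount, scaling and filter, with the compared groups alone, on junction reads and without each library in turn. The median log2 fold change of the 69 genes was -0.15 at P1 and -0.07 at P10, against -0.04 and -0.03 over all genes. Wild-type P1 library 8 was the higher of its pair for 50 of the 69 genes, and wild-type P10 library 5 for 45 of them. The same counts over all genes were not made, so these do not tell whether the shift is particular to the 69. In library 8, granule cell precursor markers summed to 100 cRPKM, against 208 in library 9 and 169 to 217 in the knockout P1 libraries. Oligodendrocyte markers summed to 22.4 to 43.3 cRPKM in knockout at P1 and 54.8 to 77.2 in wild type, without overlap. Purkinje cell markers summed to 109 cRPKM in library 8 and 219 in library 9, against 244 to 351 in knockout at P1, also without overlap. The sums of the other classes overlapped between the genotypes at P1. The part of these differences in the P1 values was not tested.

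Some of the genes with the smallest p at P1 are given with their values. Genes and events picked by small p, here and below, tend to have groups without overlap. The share of all genes or events without overlap was not counted. Snap23, the relative of SNAP-25 in other tissues, had 15.5, 15.7 and 20.2 cRPKM in knockout at P1 and 9.64 and 10.7 in wild type (log2 fold change 0.69 ± 0.24, adjusted p = 0.704). The groups did not overlap, but on junction reads the difference was -0.047 with adjusted p = 0.965, of the opposite sign. Syn2 had 17.3, 19.9 and 19 cRPKM in knockout and 39.2 and 20.4 in wild type (log2 fold change -0.57 ± 0.25, adjusted p = 0.729). In Syn2 the second wild-type library was within 1 cRPKM of the highest knockout library and the first was above all others. The smallest p of these genes was that of Stxbp3a. Stxbp3a, Vamp3, Cplx2 and Vamp4 had log2 fold changes of 0.97, 0.52, 0.50 and -0.89 and adjusted p of 0.704, 0.735, 0.714 and 0.714. On junction reads the differences were 0.31 for Stxbp3a, -0.12 for Vamp4 and -0.73 for Syn2.

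At P10 the lowest p belonged to genes that were also not called. Syn3 had 9.86, 8.16 and 11.5 cRPKM in knockout at P10 and 22 and 15.4 in wild type (log2 fold change -0.86 ± 0.26, adjusted p = 0.884), and every knockout library was below both wild-type libraries, also on junction reads (log2 fold change -0.55). Stxbp5 had 15.6, 15.2 and 14.2 in knockout and 22.4 and 22.5 in wild type (log2 fold change -0.55 ± 0.20, adjusted p = 0.884), also without overlap, but on junction reads its libraries overlapped and the difference was -0.12. Snap23 had 12.8, 14.6 and 12.8 in knockout and 6.57 and 10.3 in wild type (log2 fold change 0.63 ± 0.24, adjusted p = 0.884), with 0.21 on junction reads. Syt2, Syt7, Stx5a, Stx7 and Vamp7 had log2 fold changes of -0.57, -0.48, 0.44, 0.41 and 0.49, each with adjusted p = 0.884. On junction reads those of Syt7, Stx5a, Stx7 and Vamp7 were -0.42, 0.28, 0.17 and 0.0087. Snap25 itself differed by -0.68 ± 0.31 at P1 and 0.21 ± 0.31 at P10, with adjusted p of 0.735 and 0.964, and its libraries overlapped at both ages. A p above the threshold does not show that the genotypes were alike, and with 3 against 2 libraries small differences were not detectable.

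Among the splicing events of these genes, 1 was called between knockout and wild type, at both ages: the Stxbp5l exon of 171 nt printed above. Percent inclusion (PSI) is the share of junction reads that include an exon or other segment. The exon's PSI was 100, 97.9 and 100 in knockout at P1 and 79.3 and 66.7 in wild type at P1. It was 100, 100 and 100 in knockout at P10 and 83.5 and 71.2 in wild type at P10, and 97.2, 97.2 and 98 in wild type at P30. The exon was included almost always in all knockout libraries and at P30, and wild-type libraries at P1 and P10 were the only ones below 90. The knockout was higher by 26.3 points at P1 (log2 odds difference 4.68 ± 0.58 SE, adjusted p = 0.020) and by 22.6 points at P10 (5.53 ± 0.58, adjusted p = 0.00789), by limma on the log2 odds of inclusion. It was the single call among 169 tested events at P1, where 0.0242% of all events were called (0.0188% higher, 0.00537% lower), and among 180 at P10, where 0.0309% were called (0.0231% higher, 0.00771% lower).

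The depth behind these values was modest. The counts given here, also those behind the floors and intervals, are corrected reads rounded to whole numbers. Their shares therefore differ slightly from the PSI above. Skipping reads numbered 0 of 55, 2 of 94 and 0 of 38 in the knockout P1 libraries, against 5 of 26 and 18 of 55 in wild type at P1. At P10 they numbered 0 of 94, 0 of 47 and 0 of 115 in knockout libraries, against 18 of 111 and 38 of 131 in wild type. A count of 0 allows a skipping share of up to about 5.45% and 7.89% in the P1 knockout libraries that had none and of up to about 3.19%, 6.38% and 2.61% at P10, taking 3 reads as the floor. This floor is an approximate 1-sided bound. The 2-sided exact intervals used below are wider, with inclusion down to 93.5% in library 13 and 90.7% in library 15. In libraries with 0 skipping reads, the log2 odds was set by the read depth and the 0.5 reads added on each side. The log2 odds differences above, and their errors, therefore rest partly on depth and on that added value. The exact 95% Clopper-Pearson intervals of inclusion in wild type were 60.6 to 93.4% and 53.3 to 79.3% at P1, and 75.6 to 90.1% and 62.4 to 78.6% at P10. At P1, knockout library 14, which had skipping reads, had 92.5 to 99.7% and knockout library 15 had 90.7 to 100%. Both overlapped the interval of wild-type library 8 and not that of library 9. Intervals and floors cover counting error only, since PCR copies are not told apart.

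The call leaned on the shared estimate of spread. Fitted on the compared groups alone, adjusted p was 0.178 at P1 and 0.715 at P10. At P1 the call was lost without knockout library 13 (adjusted p = 0.0882) or 15 (0.0661), wild-type library 8 (0.0687) or 9 (0.118), or wild-type P30 library 3 (0.0545), with differences of 19.99 to 32.6 points. At P10 it was lost without wild-type library 5 (0.0788) or 6 (0.0513), with differences of 16.5 to 28.8 points. The difference between the knockout effects at the 2 ages was called for no event, and 919 of 35779 events had an unadjusted p below 0.05 in that test.

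**Figure D4:**
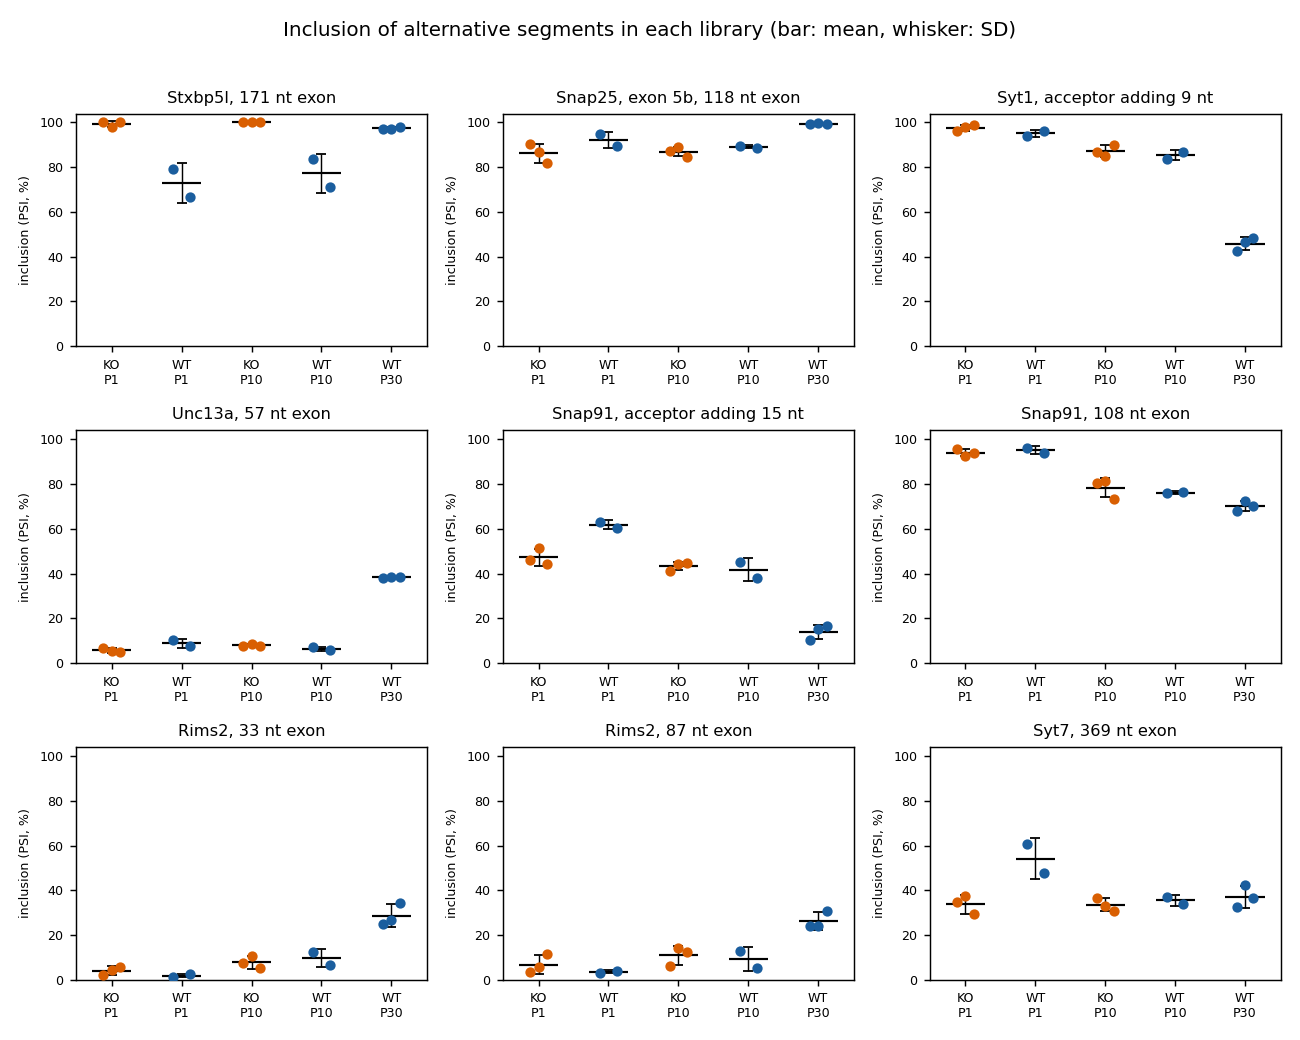
Percent inclusion (PSI, y axis) of 9 events in knockout P1, wild-type P1, knockout P10, wild-type P10 and wild-type P30 libraries; points are libraries and bars are group means with SD. The Stxbp5l exon is at 97.9 or more in all 6 knockout libraries and between 66.7 and 83.5 in wild type at P1 and P10, the Snap91 exon of 108 nt is lower at P10 and P30 than at P1, and the panels of Syt1, Unc13a and Rims2 stand apart at P30.

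In wild type the same exon rose with age, by 20.1 points at P30 against P10 (adjusted p = 0.00722, a call lost without P10 library 6) and 24.5 points at P30 against P1 (adjusted p = 0.00156). Other alternative segments of Stxbp5l were not called between genotypes. The exon of 72 nt (mm9 chr16:37186737-37186808) had PSI of 56.1, 51.5 and 51.7 in knockout at P10 and 44.9 and 34.4 in wild type, 13.4 points higher in knockout and without overlap (adjusted p = 0.9997). The exons of 93 and 141 nt and the introns of 5310 and 14206 nt were not called either. Expression of Stxbp5l was not called either. It had 5.92 and 12.5 cRPKM in knockout P1 libraries 13 and 14 and was listed at 0 in library 15, against 5.15 and 8.74 in wild type at P1. At P10 it had 15.3, 6.51 and 14.5 cRPKM in knockout and 15.6 and 15.2 in wild type (log2 fold change -0.41 ± 0.80, adjusted p = 0.979), with overlap.

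The Snap25 exon choice was not called between genotypes. Exon 5b had PSI of 90.3, 86.7 and 81.7 in knockout at P1 and 94.8 and 89.6 in wild type. At P10 it had PSI of 87.2, 89 and 84.7 in knockout and 89.6 and 88.6 in wild type. The knockout was lower by 5.9 points at P1 and 2.1 points at P10, with overlap at P1 and P10 and adjusted p of 0.962 and 0.9997. In wild type at P30 exon 5b was at 99.5, 99.6 and 99.5, above every younger library, on 35605 to 47775 reads. That was 10.4 points above P10 (adjusted p = 7.23e-06, and 4.75 ± 0.31 on the log2 odds scale). It was 7.4 points above P1, which stayed under the minimum of 10 points despite adjusted p = 3.05e-06, and the P10 difference also fell under it without P10 library 6. Exon 5a, read from its own junctions, ran opposite, with PSI of 4.86, 6.47 and 10.5 in knockout at P1, 2.88 and 5.6 in wild type at P1, 6.67, 5.7 and 7.92 in knockout at P10, 5.33 and 6.0 in wild type at P10, and 0.22, 0.24 and 0.25 at P30.

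Other events that separated knockout and wild type most at P1 were not called. The Syt7 exon of 369 nt (mm9 chr19:10500789-10501157), in a gene for a slow calcium sensor, had PSI of 34.7, 37.5 and 29.2 in knockout and 60.5 and 47.7 in wild type, -20.3 points with adjusted p = 0.593. Its groups did not overlap. An intron of Stx3 (2253 nt), the syntaxin of apical membranes and ribbon synapses, differed by -24.4 points (adjusted p = 0.94) and an intron of Rims1 (4150 nt) by 16.2 points (adjusted p = 0.943). At P10 the smallest p were those of the Syt14 exon of 165 nt, at 10.8 points, an intron of Stxbp2 and an intron of Snap23, all with adjusted p = 0.9997.

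Both comparisons with P30 gave more calls than the 1 event called between genotypes at each age. At P30 against P1 in wild type, 14 of 167 tested events rose and 9 fell (13.8%), where 9.96% of all events were called, 6.11% higher and 3.86% lower. At P30 against P10, 6 rose and 4 fell of 176 (5.68%), where 2.96% of all were called, 2.05% higher and 0.91% lower. The called events lay in 16 and 10 of 49 genes. The share of all genes with a called event was not computed. Without wild-type P1 library 8 the 23 calls were 12, and without P10 library 6 the 10 calls were 4. At P10 against P1, 1 of 171 was called lower in wild type, where 0.646% of all were called (0.355% higher, 0.291% lower), and 2 of 176 were called lower in knockout, where 0.857% were called (0.444% higher, 0.413% lower). The wild-type count became 2 without knockout P1 library 15, knockout P10 library 10 or 11, wild-type P10 library 5 or 6, or any P30 library, and 3 without knockout P10 library 12. The knockout count became 1 without P1 library 15 or P10 library 11.

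The Syt1 acceptor that adds the 9 nt printed above had the largest fall. Its use was 94.1 and 96.2% in wild-type libraries at P1, 83.9 and 87% at P10 and 42.7, 46.6 and 48.4% at P30. The ages did not overlap, and the change was -49.2 points at P30 against P1 (adjusted p = 1.43e-05) and -39.6 points at P30 against P10 (adjusted p = 0.00192). In knockout it was used at 86.9, 84.9 and 89.9% at P10 against 96.1, 98.1 and 98.8% at P1, a called fall of 10.5 points (adjusted p = 0.00175) that went under the minimum of 10 points without knockout P1 library 15 or P10 library 11 and missed the threshold with the compared groups alone. Expression of Syt1 in wild type differed by 0.41 on the log2 scale at P30 against P1, as given above. At P30 against P10 it was called higher (limma, log2 fold change 0.78 ± 0.13, adjusted p = 0.0013), and without each library in turn. In knockout it was called lower at P10 than at P1 (limma, log2 fold change -0.46 ± 0.11, adjusted p = 0.0227). That call was lost without knockout P1 library 13 or P10 library 10 or 12, and with the compared groups alone.

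An exon of a Munc13 gene that was at 10.1 PSI or less in every P1 library was higher at P30. The Unc13a exon of 57 nt printed above had PSI of 10.1 and 7.4 in wild-type libraries at P1, 7.0 and 5.8 at P10 and 37.8, 38.5 and 38.4 at P30. It was 31.8 points higher at P30 than at P10 (adjusted p = 0.00011), and the P30 libraries agreed within 1 point. Knockout libraries had 7.7, 8.5 and 7.6 at P10 and 6.7, 5.4 and 4.8 at P1 for this exon.

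Snap91, the vesicle recycling gene, used 2 of its segments less with age. Its 15 nt acceptor segment was used at 63.2 and 60.5% in wild-type libraries at P1, 45.3 and 38.1% at P10 and 10.3, 15.2 and 16.4% at P30 (-47.8 points at P30 against P1, adjusted p = 1.45e-05). In knockout at P1 it was used at 46.2, 51.4 and 44.1%, below both wild-type libraries, but the difference of -14.6 points was not called (adjusted p = 0.995). Its exon of 108 nt (mm9 chr9:86688192-86688299) changed earlier, with PSI of 80.6, 81.3 and 73.3 at P10 against 95.7, 92.6 and 93.9 at P1 in knockout (adjusted p = 0.000887) and 75.8 and 76.6 at P10 against 96.3 and 93.9 at P1 in wild type (adjusted p = 0.0014). The difference of P10 minus P1 was -15.7 points in knockout and -18.9 points in wild type. This exon was the event called in both genotypes between P1 and P10. With the compared groups alone the wild-type call was lost. At P30 the exon stood at 68, 72.5 and 70.2.

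Among the remaining calls at P30 against P1, 4 were exons of Rims2, of 33, 87, 66 and 12 nt, which rose by 26.7, 22.7, 24.7 and 25.1 points. The calls of the last 3 were lost without P1 library 8. Exons of Stx3 of 114 and 46 nt rose by 45.3 and 35.6 points, and the Stx18 exon of 68 nt, in a syntaxin of the endoplasmic reticulum, by 15 points. In Syt7, the exons of 132 and 123 nt changed by -17 and -19.6 points. The Syt10 exon of 358 nt was called at P30 against P10 alone (15.5 points). The calls in Stx18, Syt7, Syt10 and the longer Stx3 exon were each lost without 4 or more of the 13 libraries, and except for Stx18 also with the compared groups alone.

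Retained introns moved both ways. Retention of the intron of 889 nt in Syn1 changed by -31.2 points at P30 against P1 and -29.8 points at P30 against P10, that of 2266 nt in Rims1 by -14.7 and -13.7, and introns of Syt3 and Syn2 by -28.4 and -11.4 points at P30 against P1. The intron of 4371 nt in Vamp4, a SNARE of the trans-Golgi network, rose by 37 points (adjusted p = 0.00189). Introns of Snap23, Stx5a and Stxbp5l rose by 14.4, 17.6 and 15.7 points at P30 against P1, and that of Stxbp2, for Munc18-2, by 37.6 points at P30 against P10. Each intron call except that of Vamp4 was lost without at least 1 library, those of Stx5a and Stxbp5l without 8 and 10 of the 13. With the compared groups alone those of Stx5a, Stxbp5l and Stxbp2, and that of Rims1 at P30 against P10, were not called.

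The partners of this machinery outside the name rule were described by lists, read against the shares of all genes given above. Of 16 active zone and docking genes, 6 rose and 4 fell in wild type at P30 against P1, with a median log2 fold change of 0.39. Among those that rose were Cadps2, for a priming factor of dense-core vesicles (2.02), and Rph3a, for the Rab3 partner rabphilin (2.09). Among those that fell were Doc2a, for a calcium sensor of spontaneous release (-2.80), and Erc2, for the scaffold CAST (-2.34). Of 12 genes for SNARE recycling, chaperones and Rab3 regulators, 6 rose and 0 fell, with a median of 0.64, and these included Nsf, for the ATPase that takes spent SNARE complexes apart (1.33), and its adaptors Napa (0.94), Napb (0.94) and Napg (0.78). Of 13 tested genes for vesicle transporters and other vesicle membrane proteins, 4 rose and 1 fell, with a median of 0.43. Slc17a7, for the vesicular glutamate transporter VGLUT1 and also in the marker list of mature granule cells, averaged 174 cRPKM at P30 against 2.91 at P1. Slc17a6, for VGLUT2, averaged 5.33 cRPKM at P30 against 47.2 at P1. Of 12 SNAREs of the endoplasmic reticulum, Golgi and endosomes, 0 rose and 1 fell, Ykt6 (-1.22), with a median of -0.15. No gene of these lists was called between knockout and wild type at P1 or P10 (limma, Benjamini-Hochberg adjusted).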

How the data were processed

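Per the labels, RNA of 13 cerebellum samples was isolated with a Qiagen kit, and libraries were prepared by a modified protocol for stranded mRNA. FastQC, Trimmomatic and the build mm9 are named in the submitters' processing notes. Their versions, the aligner and the program behind both tables were not given in the sources used here. The authors deposited expression as cRPKM, an RPKM corrected for mappable length. They deposited inclusion as percent (PSI) per event, with a quality field that, per the file headers and values, holds other figures: corrected reads for and against inclusion, which need not be whole.

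Of 22667 genes, 21553 had a value. Log2(cRPKM + 1) was tested for the 14063 genes that averaged 1 cRPKM or more in any group. The log2 odds of inclusion, with 0.5 reads added on each side, was tested for events with at least 10 reads in a library, mean PSI of 5 to 95 and at least 2 libraries in each group compared. Of 283765 events, 30610 splice site entries without added length were left out, and sites of a group counted once. Libraries under 10 reads were missing in the splicing fit. Both used limma 3.58.1 in R 4.3.3, with 1 fit of 5 groups (8 residual degrees of freedom for expression), an intensity-dependent prior and Benjamini-Hochberg adjustment over all features of a comparison. Genes were called at adjusted p below 0.05, and events also needed 10 points of PSI. Simulated data were run through the tests for knockout against wild type at P1 only. Changes were put into well-expressed genes and into events of intermediate inclusion. Events near full inclusion, such as the Stxbp5l exon, were not among those changed, and the outcome is not reported here. The authors' own comparisons were not among the files used. Alternatives were pseudocounts of 0.1 and 5, no filter, median-ratio scaling, quantile normalization, the compared groups alone, junction reads scaled to library totals (genes averaging 10 reads or more), at least 20 reads, 1 read added, no minimum PSI difference and leaving out each library.

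The genes and lists were chosen with earlier results of these data known. The genes named are a fixed set of core release genes, in each comparison up to 8 called genes in each direction with the largest fold change, and for genotype the 4 in each direction with the smallest p. Events named are those of the Snap25 exon pair and Stxbp5l, called events, and for genotype the 4 with the smallest p. Unc13d, the exons of the plots and called genes beyond these 8 (Stx4a, Stx7, Stx12, Snap29, Stxbp3a, Rims2, Rims3, Rims4, Syt7 and Syt9 among them) were added after their values were seen. Cell markers in the text are those of granule cells, Purkinje cells, oligodendrocytes, and midbrain and caudal hindbrain. The sums of the other classes were also computed. Exon sequences come from GENCODE M21 transcripts (GRCm38), since an mm9 genome was not used here. Values of some single genes are not reported here.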

Additional observations from a re-analysis of the deposited data

How the results depend on the processing

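Calls between knockout and wild type in expression numbered 0 under every alternative run. For wild-type P10 against P1, the 11 expression calls were 7 with a pseudocount of 0.1 and 18 on junction reads, and 5 to 15 without single libraries. For knockout P10 against P1, the 21 calls were 9 with the compared groups alone and 14 to 23 without single libraries. Without single libraries there were 12 to 29 calls at P30 against P10 and 25 to 41 at P30 against P1. In splicing, wild-type P10 against P1 gave 2 calls with at least 20 reads, 0 with the compared groups alone and 1 to 3 without single libraries. Knockout against wild type gave 0 with the compared groups alone at P1 and at P10, and 0 to 1 without single libraries at each age. Knockout P10 against P1 gave 1 with the compared groups alone and 1 to 3 without single libraries. At P30 without single libraries there were 4 to 11 splicing calls against P10 and 12 to 26 against P1. Where a setting left out 1 of 2 libraries, the lone library was assumed to vary like the other groups. Of the values of single genes and events under alternatives, 2643 kept their direction and side of the threshold, 308 kept direction but lost the call, 16 kept direction and passed only under the alternative and 1 reversed, Snap23 in knockout against wild type at P1, at -0.047 on junction reads. The causes were not tested. No paired analysis was possible because the groups compared share no replicate number. The groups of 2 wild-type libraries and the low yield of expression values in knockout P1 library 15 limit what could be detected.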
